A study of Mus musculus with 3 samples.

Results

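The genes described here are the thioredoxins Txn1 and Txn2, the thioredoxin reductases Txnrd1 and Txnrd2 and the peroxiredoxins Prdx1 to Prdx6, taken by symbol from the deposited gene table. All 10 symbols were found, on 1 line each, among 56691 genes. They were measured by RNA sequencing in 3 cultures of mouse gastric corpus organoids, 1 library per group. Such organoids are small epithelial bodies that grow from stomach cells embedded in a gel, here in a medium for proliferation. The Mist1- and Mist1+ cultures, with a wild-type label, came from Mist1Cre/ERT2;RFPLSL mice, and the culture labelled Gpx4 KO-Mist1+, with the genotype label Gpx4 KO, came from Gpx4F/F;Mist1Cre/ERT2;RFPLSL mice. All 3 groups thus share an inducible Cre at the locus of Mist1, a transcription factor of secretory cells, and a red fluorescent reporter. The mice were about 8 weeks old. Each group is 1 culture, every title carries the label P5, and the labels used here do not give the number of mice behind a culture or the agent that induced Cre.

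Thioredoxins are small proteins that reduce disulfide bonds in other proteins, and thioredoxin reductases recharge them with electrons from NADPH. Peroxiredoxins are abundant peroxidases that use a reactive cysteine to remove hydrogen peroxide and organic peroxides, and most of them are recharged by thioredoxin. The cytosol and nucleus use Txn1, Txnrd1, Prdx1, Prdx2 and Prdx6, mitochondria use Txn2, Txnrd2, Prdx3 and Prdx5, and Prdx4 works in the endoplasmic reticulum. Prdx5 is also found in peroxisomes and the cytosol. The system stands beside the glutathione system, to which Gpx4, the peroxidase of membrane lipid hydroperoxides, belongs.

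The reductases are selenoproteins, like Gpx4: a TGA codon, elsewhere a stop, is read as selenocysteine. In the reductases it lies next to the end of the protein. The last codons of both reductase genes are shown because they mark the only members that share a selenocysteine codon with the gene named in the labels. They were read from the GENCODE M21 transcripts, 5′ to 3′, with the selenocysteine codon in capitals and the stop codon last.
Txnrd1: atcctccagtctggctgcTGAggttaa
Txnrd2: cctactgtgactggttgcTGAggctaa
In both, 1 codon lies between the selenocysteine codon and the stop codon. In GRCm38 the codon is at chr10:82896037-82896039 in Txnrd1 and at chr16:18477772-18477774 in Txnrd2, each inside a coding exon on the plus strand.

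The libraries held 14943918 to 16396693 counts. Gpx4 had 4399 counts in Mist1- and 1998 in Mist1+. The library labelled Gpx4 KO-Mist1+ had 2569, so Gpx4 was 1.27-fold higher there than in Mist1+ (1.20 to 1.35). A count over the whole gene is no check of the deleted part, and "labelled knockout" repeats the label only. All 5 epithelial markers (Epcam, Cdh1, Krt8, Krt18 and Krt19) were present, with a summed FPKM of 2358 to 3312. FPKM scales a count to the gene's exonic length and the column total. Of 11 markers of corpus gland lineages 9 had over 3 counts in each library. The parietal cell gene Atp4b was at 0 in all 3. Atp4a, also of parietal cells, had 58, 103 and 83 counts in Mist1-, Mist1+ and the labelled knockout. Chga, of enteroendocrine cells, was at 2 counts or none. The levels of several of the 11 markers moved with the groups. Genes of the surface pit lineage were far lower in Mist1+ than in Mist1-: Tff1 at 90.6 against 657 FPKM, Gkn1 at 2.22 against 22.2 and Gkn2 at 5.02 against 33.5. Tff2, of neck cells, was at 178, 52.5 and 111 FPKM in Mist1-, Mist1+ and the labelled knockout. Muc6, also of neck cells, went the other way, at 5.71, 20.0 and 20.6, and the chief cell gene Cblif was at 403, 823 and 502. These 6 lineage genes thus differed by more than most of the 10 genes did between Mist1- and Mist1+, and their part in the results on these genes was not tested. Erythroid cells hold much Prdx2, and their 6 markers summed to 0.180 to 0.260 FPKM, with Hba-a2 and Hbb-bt at 0. Endothelial markers summed to at most 0.160 FPKM, and those of fibroblasts and muscle to at most 0.120, with Pdgfra and Pdgfrb at 0. Of 6 leukocyte markers only Cd68 passed 3 counts, at 4.37, 5.06 and 24.4 FPKM in the 3 libraries in the order above, while Ptprc had at most 1 count and Cd3e was at 0.

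With 1 library per group there is no replicate check and no test of any difference, and every comparison describes these libraries only. A fold divides counts after each was scaled to its library's column total. The 95% intervals in brackets, exact Poisson for levels and exact binomial for folds, cover counting error only. In bulk RNA, fewer cells of a type and less RNA per cell cannot be told apart.

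Prdx1 and Txn1, the cytosolic pair, were the most abundant of the 10 in every library. Prdx1 (ENSMUSG00000028691, chromosome 4, 116685544 to 116700822, plus strand, GRCm38) was at 721 FPKM (713 to 729) in Mist1-. It was at 377 FPKM (371 to 382) in Mist1+ and at 327 FPKM (322 to 333) in the labelled knockout. These levels lie above 99.2% or more of the 13351 genes whose FPKM reached 1 in some library. Txn1 (ENSMUSG00000028367, chromosome 4, 57943373 to 57956411, minus strand) was at 569.8 (558 to 582), 274 (267 to 282) and 241 (234 to 249). Both were thus highest in Mist1- and lowest in the labelled knockout, with no overlap of intervals between libraries. The mitochondrial reductase Txnrd2 was the least abundant member, at 3.54, 2.88 and 2.19 FPKM. The others lie, in GRCm38, at chr15:77915047-77929006 (Txn2, minus strand), chr10:82833951-82897712 (Txnrd1, plus), chr16:18426384-18479073 (Txnrd2, plus), chr8:84969587-84974834 (Prdx2, plus), chr19:60864051-60874556 (Prdx3, minus), chrX:155323918-155340754 (Prdx4, minus), chr19:6906697-6910106 (Prdx5, minus) and chr1:161240112-161251219 (Prdx6, minus). Together the 10 genes took 0.461%, 0.270% and 0.246% of the counts.

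**Figure D1:**
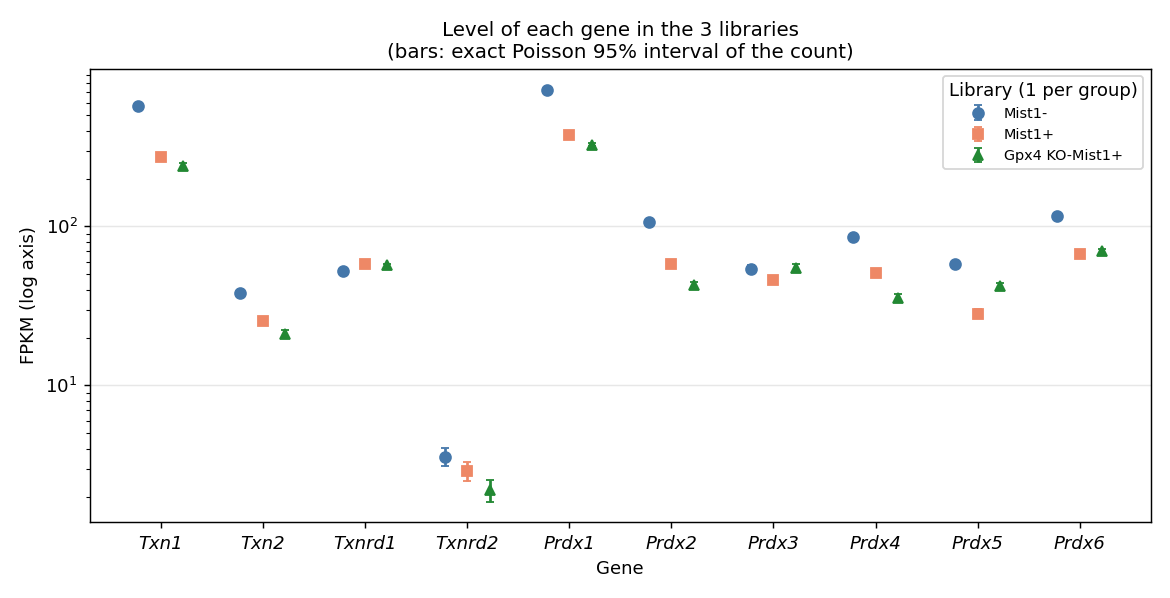
FPKM (log axis) of each of the 10 genes in the 3 libraries, 1 point per library with the exact Poisson 95% interval of its count. Prdx1 and Txn1 stand on top in each library, Txnrd2 at the bottom, and 8 of the 10 genes are highest in Mist1-. The share of all genes highest in Mist1- was not counted.

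Between these ends the order of the levels differed among the libraries. In Mist1- it ran Prdx6, Prdx2, Prdx4, Prdx5, Prdx3, Txnrd1 and Txn2, where Prdx5 and Prdx3, and Prdx3 and Txnrd1, had overlapping intervals. In Mist1+ it ran Prdx6, Txnrd1, Prdx2, Prdx4, Prdx3, Prdx5 and Txn2, and Txnrd1 could not be separated from Prdx2, nor Prdx4 from Prdx3. In the labelled knockout it ran Prdx6, Txnrd1, Prdx3, Prdx2, Prdx5, Prdx4 and Txn2, with overlap between Txnrd1 and Prdx3 and between Prdx2 and Prdx5. Txnrd1 thus stood at place 8 of 10 in Mist1- and at place 4 in both other libraries. The deposited length joins all exons of a gene, and for Txnrd1 it is 7086 bases against 3531 for its longest principal coding transcript, so these levels are low estimates for genes with many alternative exons. On the transcript length, an alternative chosen after the data were seen, Txnrd1 had place 6, 4 and 4 and Prdx3 had place 9, 9 and 8, while Prdx1, Txn1 and Prdx6 kept the top 3 places.

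Comparing Mist1+ with Mist1- sets organoids labelled for Mist1 beside those labelled as lacking it. Transcripts of both thioredoxins and of all 6 peroxiredoxins were lower in Mist1+ (the lower level of Prdx3 turned on TPM, which gives each library the same total, and with the length trend removed), and the cytosolic reductase was not. Of the 10 genes 1, Txn1, was at least 2-fold lower and 0 at least 2-fold higher in FPKM plus 1, beside 5.73% and 7.88% of all 13351 genes. That count moved with the scaling, to 0 on TPM beside 4.01% of all genes, 2 on CPM beside 4.78% and 5 with median ratio scaling beside 9.22%. At a cutoff of 1.5-fold 6 of the 10 were lower (Txn1, Prdx1, Prdx2, Prdx4, Prdx5 and Prdx6) and 0 higher, beside 15.0% and 23.7% of all genes. The median log2 ratio of the 10 was -0.77, against 0.15 over all genes. Both medians moved with the scaling, to -0.45 and 0.45 on TPM and to -1.0 and -0.03 with median ratio scaling. The distance between them, -0.92 as measured, was -0.91 to -0.97 under these scalings and on counts without length. A scaling shifts both medians about alike, so this is no check of the distance. It was -0.81 with a pseudocount of 5 and -0.66 with the length trend removed. Without the filter it was -0.77, but the median over all 56691 genes was then 0.00. That value is therefore only the median of the 10 themselves. The split of all genes was 22.6% higher to 4.01% lower on TPM, and 4.84% to 9.22% with median ratio scaling.

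Txn1, which reduces cytosolic targets including peroxiredoxins and ribonucleotide reductase, was 2.08-fold lower (2.0 to 2.15), from 8949 to 4668 counts. Prdx1 was 1.91-fold lower (1.88 to 1.95), from 32789 to 18559 counts, and Prdx2, its closest cytosolic relative, 1.84-fold lower (1.76 to 1.93), from 107 to 57.8 FPKM. Prdx6, a peroxiredoxin with a single catalytic cysteine, recharged by glutathione, that also acts on phospholipid hydroperoxides, was at 117 and 66.8 FPKM, or 1.75-fold lower (1.69 to 1.81). The cytosolic thioredoxin and these 3 peroxiredoxins were therefore between 1.75-fold and 2.08-fold lower, a range that widened, with Prdx6 and Txn1 at its ends, when the length trend was removed. The level of Txnrd1 was 52.3 FPKM in Mist1-, and its 58.3 FPKM in Mist1+ was 1.12-fold higher (1.08 to 1.16), a direction that turned with median ratio scaling and with the length trend removed.

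A ratio of 2 genes within a library does not depend on the scaling. Txn1 had 1.62 counts for each count of Txnrd1 in Mist1-, 0.698 in Mist1+ and 0.630 in the labelled knockout. The ratio in Mist1+ was thus 2.32-fold below that in Mist1- (2.2 to 2.44, from the Poisson variance of the 4 counts). Prdx1 per count of Txnrd1 stood at 5.92, 2.77 and 2.48, or 2.13-fold lower in Mist1+ (2.05 to 2.22). Prdx1 and Txn1 kept close to each other, with 3.66, 3.98 and 3.93 counts of Prdx1 per count of Txn1. So on counts it was the distance to the reductase, and less that between thioredoxin and peroxiredoxin, that differed among the libraries. Txnrd1 is the longest of the 10 genes and Txn1 the shortest, and length moved with the ratios as given below. With the length trend removed, the log2 ratios in Mist1+ against Mist1- were -0.60 for Txn1, -0.31 for Txnrd1 and -0.88 for Prdx1. Txn1 then lay about as far from Prdx1 as from Txnrd1, so the contrast seen on counts did not hold.

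In mitochondria the level of Txn2, 37.9 FPKM in Mist1-, was 25.3 in Mist1+, 1.5-fold lower (1.41 to 1.59). Its reductase Txnrd2, with 233 and 205 counts, was 1.23-fold lower (1.02 to 1.49), and this turned on TPM. Prdx3, the main mitochondrial peroxiredoxin, was at 54.1 and 46.1 FPKM, 1.17-fold lower (1.08 to 1.27), the smallest step among the peroxiredoxins. Prdx5 was at 57.6 and 28.3 FPKM, 2.03-fold lower on counts (1.88 to 2.2), and just missed 2-fold in FPKM plus 1. The 2 mitochondrial peroxiredoxins thus differed in their step, and the count of Prdx5 per count of Prdx3 was 1.54 in Mist1- and 0.889 in Mist1+. Which of them has the higher level depends on the length used, since in Mist1- Prdx5 and Prdx3 were at 57.6 and 54.1 FPKM on the deposited lengths and at 97.7 and 54.1 on the transcript length, and in Mist1+ at 28.3 and 46.1 against 48.0 and 46.1. In the endoplasmic reticulum Prdx4, which also drives disulfide formation in secreted proteins, was at 86.2 and 51.0 FPKM, 1.69-fold lower (1.59 to 1.80).

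**Figure D2:**
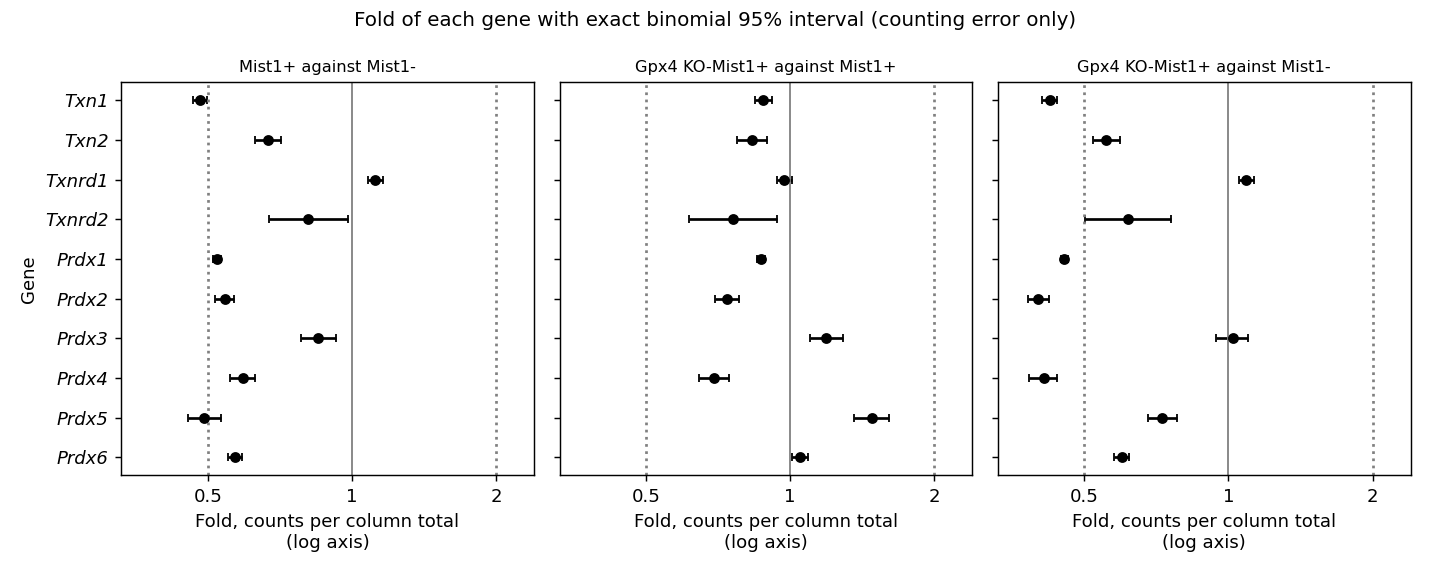
Fold of each gene in the 3 comparisons (log axis), from counts scaled to column totals, with the exact binomial 95% interval for counting error; dotted lines mark 2-fold. In Mist1+ against Mist1- 9 of 10 intervals lie below 1, and Txnrd1 alone lies above it, at 1.12. Of all 13351 genes 5411 had a log2 ratio below 0 in this pair.

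Differences between Mist1+ and Mist1- went with exonic length over the whole table, and several of these genes are short. Spearman's rho of length and log2 ratio was 0.49 over 13351 genes, which are not independent, and 0.48 over the 10 genes as a description. Txn1 (1051 bases) and Prdx3 (1478 bases) are in the shortest of 5 equal groups of genes, where the median was -0.36 and 20.4% of genes were at least 2-fold lower. Txn2, Txnrd2, Prdx1 and Prdx2 are in the middle group (3030 to 4582 bases), where the median was 0.09 and 1.95% were at least 2-fold lower, against -0.56, -0.23, -0.93 and -0.87 for these 4. Prdx6 (4804 bases) had -0.80 in a group with a median of 0.36, and Txnrd1 had 0.15 in the longest group, whose median was 0.63. With the trend on length removed, the median of the 10 was -0.66, and 9 of 10 were below 0, beside 6604 of 13351 genes. Txn1 then stood at -0.60, Prdx1 at -0.88, Prdx6 at -1.04 and Txnrd1 at -0.31, while Prdx3 was at 0.21. Removing the trend thus moved Txn1, Txnrd1 and Prdx3 by similar amounts, turned the sign of Txnrd1 and Prdx3, and put Prdx6 in place of Txn1 as the lowest of the 10. The source of the length trend was not tested.

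**Figure D3:**
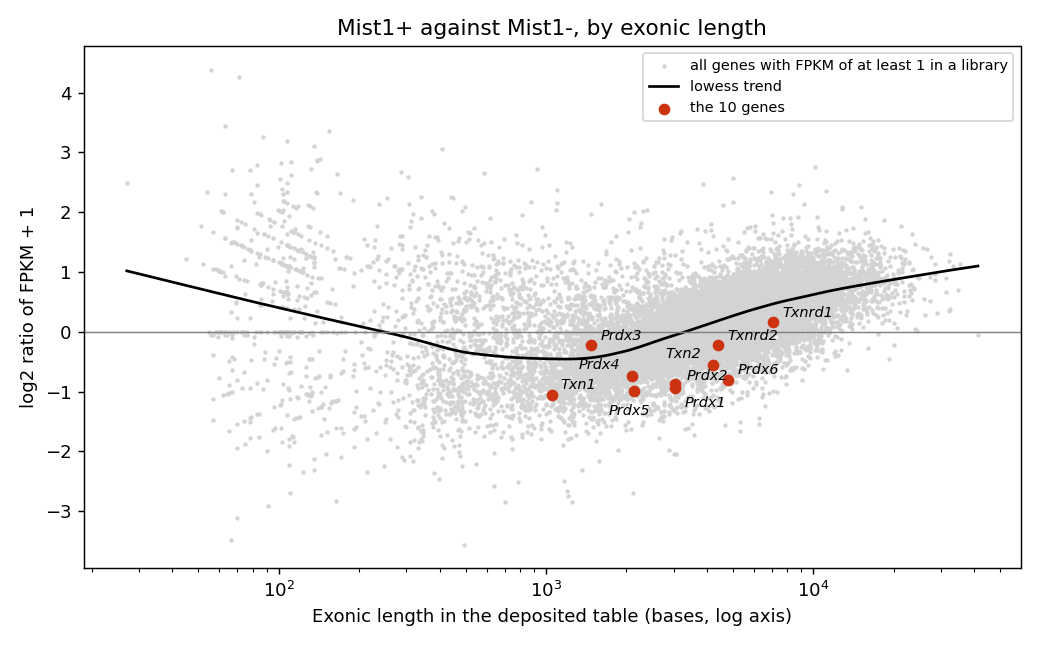
Log2 ratio of FPKM plus 1 for Mist1+ against Mist1- by exonic length (log axis): grey points are the 13351 genes, the line is the lowess trend, red points are the 10 genes. Prdx3 is the only one of the 10 above the line, and Txnrd1, though above 0, lies under it.

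Comparing the labelled knockout with Mist1+ addresses the Gpx4 deletion named in the labels. Here the 10 genes differed less, and in both directions: Prdx5 and Prdx3 were higher, Prdx4 and Prdx2 lower, and Txnrd1 about level. None was 2-fold apart or more, beside 4.81% of all genes on the higher side and 2.74% on the lower. None passed 1.5-fold either, where 10.6% of all genes were higher and 11.3% lower. The median log2 ratio was -0.19, against -0.09 over all genes. Spearman's rho of exonic length and log2 ratio was -0.02 over all genes in this pair.

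Prdx5 went from 28.3 FPKM in Mist1+ to 41.9, 1.48-fold higher (1.36 to 1.61), and remained below the 57.6 of Mist1-. Prdx3 went from 46.1 to 55.1, 1.19-fold higher (1.10 to 1.29), and its interval there overlapped that of the 54.1 in Mist1-. Both mitochondrial peroxiredoxins were thus higher, but Txn2, from 25.3 to 21.1 FPKM, was 1.20-fold lower (1.12 to 1.29), and Txnrd2, from 205 to 158 counts, 1.31-fold lower (1.06 to 1.63). Within the libraries, the count of Prdx3 per count of Txn2 was 0.501 in Mist1-, 0.640 in Mist1+ and 0.917 in the labelled knockout. That ratio was 1.43-fold higher in the labelled knockout than in Mist1+ (1.29 to 1.59) and 1.83-fold higher than in Mist1- (1.65 to 2.02).

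Prdx4 was lower again, from 51.0 to 35.4 FPKM, or 1.44-fold (1.34 to 1.55), and Prdx2 from 57.8 to 42.7, or 1.35-fold (1.28 to 1.43). Prdx1 was 1.15-fold lower (1.13 to 1.18) and Txn1 1.14-fold lower (1.09 to 1.19). Prdx6 was at 70.0 against 66.8 FPKM, 1.05-fold higher (1.01 to 1.09). The interval of Txnrd1, at 56.8 against 58.3 FPKM, held 1 (fold 0.973, 0.941 to 1.01), and its sign turned with median ratio scaling and with the length trend removed. For the other 9 genes the sign was the same on TPM, with median ratio scaling and with the trend removed. The other pseudocounts, the filters and counts without length could not turn a sign.

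Against Mist1- the labelled knockout had 4 of 10 genes at least 2-fold lower, Txn1, Prdx1, Prdx2 and Prdx4, and 0 at least 2-fold higher, beside 8.56% and 11.6% of all genes. At 1.5-fold 6 were lower, with Txn2 and Prdx6 added, and 0 higher, beside 20.1% and 25.6%. This comparison shares each of its libraries with one of the other comparisons, so it is no separate support for them. Prdx2 was 2.50-fold lower (2.37 to 2.63), Prdx4 2.44-fold (2.28 to 2.61), Txn1 2.36-fold (2.28 to 2.45) and Prdx1 2.2-fold (2.16 to 2.24). Of the other 6, Txn2 was 1.80-fold lower (1.68 to 1.92), Prdx6 1.67-fold (1.62 to 1.73), Txnrd2 1.62-fold (1.32 to 1.99) and Prdx5 1.37-fold (1.28 to 1.47). The interval of Prdx3 held 1 (1.02-fold, 0.940 to 1.10), and its sign turned with median ratio scaling. Txnrd1 was 1.09-fold higher (1.05 to 1.13), which turned with median ratio scaling and with the length trend removed. The median was -0.78, against 0.09 over all genes. On TPM the count at least 2-fold lower was 1, Prdx2, beside 5.95% of all genes. With the length trend removed it was also 1, again Prdx2, beside 6.09%. So the distance of this count from the share of all genes depended on the setting. The rho with length in this pair was 0.39.

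Over the 3 libraries 6 of 10 genes stood highest in Mist1-, next in Mist1+ and lowest in the labelled knockout: Txn1, Txn2, Txnrd2, Prdx1, Prdx2 and Prdx4. The share of all genes in this order was not counted, so the 6 have no background. Of all 13351 genes 5411 were below 0 in Mist1+ against Mist1-, and 7850 in the labelled knockout against Mist1+. For Txnrd2 the intervals of neighbouring libraries overlapped, and on TPM it was highest in Mist1+. Prdx5 and Prdx6 were also highest in Mist1- but lowest in Mist1+. Prdx3 was highest in the labelled knockout, with an interval that overlapped that in Mist1-, and Txnrd1 was highest in Mist1+, with overlap with the labelled knockout. For Prdx5 and Prdx3 both differences rest on the same Mist1+ library. The summed FPKM of the 6 peroxiredoxins was 1143, 627 and 573. Prdx1 made up 63.1%, 60.1% and 57.2% of that sum, and Prdx2 9.32%, 9.22% and 7.45%. The share of Prdx3 was 4.74%, 7.36% and 9.62%, and that of Prdx5 5.04%, 4.52% and 7.32%. So the mitochondrial forms held a larger part of a smaller sum in the labelled knockout. These shares rest on the deposited lengths.

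**Figure D4:**
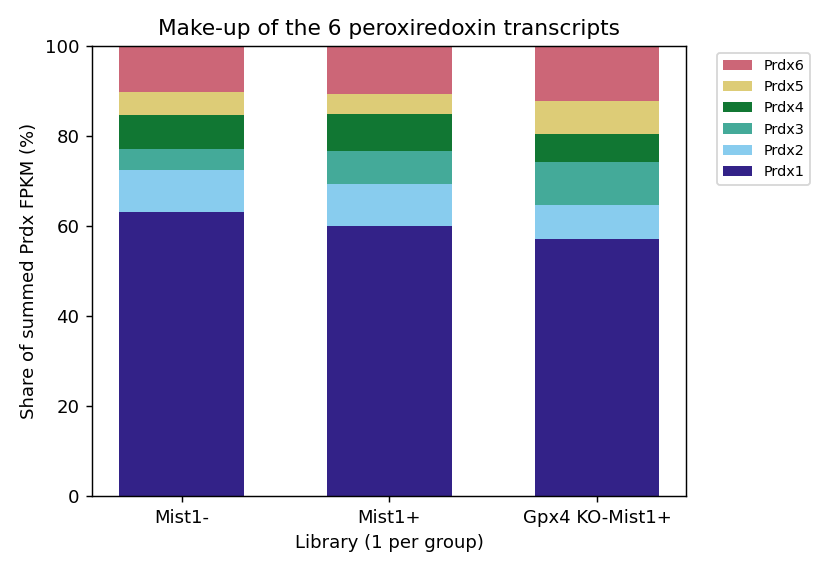
Share of each peroxiredoxin in the summed FPKM of the 6 (%), 1 bar per library. The Prdx1 part goes from 63.1% in Mist1- to 57.2% in the labelled knockout, and the Prdx3 part from 4.74% to 9.62%.

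Promoters are shown for Prdx1 and Txnrd1, which differed in opposite directions between Mist1+ and Mist1- on FPKM. Both belong to the genes known as targets of NRF2, a factor activated by oxidants that binds the antioxidant response element. RefSeq promoters (GRCm38.p6, 250 bases before to 50 after the start) matched 9 of the 10 genes with 11 entries, 3 of them for Txnrd1; Prdx6 had no entry. The element was searched as TGACNNNGC on both strands. It was found in Prdx1 and in the second of the 3 Txnrd1 entries, beside 12.4% of all 32851 promoters of that length. The sequences read 5′ to 3′ on the plus strand, with the match, which lies on the opposite strand, in capitals. The first is chr4:116685349-116685648, the next chr10:82858956-82859255.
Prdx1: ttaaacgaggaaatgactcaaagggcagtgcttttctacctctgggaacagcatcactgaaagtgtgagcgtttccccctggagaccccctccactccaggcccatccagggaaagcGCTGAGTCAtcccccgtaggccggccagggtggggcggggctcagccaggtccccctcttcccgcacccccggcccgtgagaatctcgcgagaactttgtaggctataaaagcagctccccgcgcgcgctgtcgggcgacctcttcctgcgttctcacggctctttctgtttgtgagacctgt
Txnrd1: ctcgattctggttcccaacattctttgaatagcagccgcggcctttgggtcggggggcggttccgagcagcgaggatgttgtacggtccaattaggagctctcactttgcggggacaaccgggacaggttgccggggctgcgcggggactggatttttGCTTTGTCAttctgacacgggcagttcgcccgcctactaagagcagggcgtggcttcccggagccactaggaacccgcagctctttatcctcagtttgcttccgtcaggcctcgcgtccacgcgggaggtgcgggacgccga
The matches begin at -133 and -92 relative to the start. The core of the hypoxia response element, ACGTG on either strand, was found in the promoters of Prdx4, where it is part of an E-box (CACGTG), and Txnrd2, beside 19.6% of all promoters. A match is a string of letters and not a measured site.

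Genes that work around the system came from 5 lists, and 48 of their 50 genes passed the filter. In Mist1+ against Mist1- 1 of the 48 was higher and 4 were lower by 2-fold or more, beside 7.88% and 5.73% of all genes, with a median log2 ratio of -0.08 beside 0.15. In the labelled knockout against Mist1+ 3 were higher and 2 lower, beside 4.81% and 2.74%, with a median of -0.11 beside -0.09. Against Mist1- 3 were higher and 6 lower, beside 11.6% and 8.56%, with a median of -0.20 beside 0.09. The medians of the 10 thioredoxin and peroxiredoxin genes were -0.77, -0.19 and -0.78. The list of peroxide and superoxide enzymes, with 4 genes measured, had medians of -0.58 and -0.71 in the comparisons with Mist1-, but its genes were split. Sod1 and Gpx1 were at least 2-fold lower in each. Sod2 was at -0.08 and -0.07 and Cat at 0.57 and 0.00, so no gene lay near the list's median.

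Of 21 measured partners of the system, Txnip, which binds and inhibits thioredoxin, was at 78.3 FPKM in Mist1-, 101 in Mist1+ and 197 in the labelled knockout. It was 1.95-fold higher in the labelled knockout than in Mist1+ (1.88 to 2.01) and 2.51-fold higher than in Mist1- (2.42 to 2.61), while Txn1 was at its lowest there. Srxn1, sulfiredoxin, which restores overoxidized peroxiredoxins, was at 32.6, 24.5 and 19.3 FPKM, in the same order of libraries as Prdx1 and Prdx2. Gsr, the reductase of glutathione, was at 121, 106 and 100.2 FPKM, so Gsr and Txnrd1 both varied by little. Sesn3, a sestrin, was 2.92-fold higher in Mist1+ than in Mist1- (2.72 to 3.14) and 2.19-fold lower in the labelled knockout than in Mist1+ (2.06 to 2.34). Its log2 ratio for Mist1+ against Mist1- went from 1.36 to 0.58 with the length trend removed. Txndc17, a thioredoxin-like protein of the cytosol, was 2.36-fold lower in Mist1+ than in Mist1- (2.17 to 2.56). With the length trend removed its log2 ratio went from -1.22 to -0.77. The mitochondrial glutaredoxin gene Glrx5, at 23.2, 11.5 and 9.31 FPKM, was 2.49-fold lower in the labelled knockout than in Mist1- (2.26 to 2.76). The methionine sulfoxide reductase genes Msrb1 and Msrb2 fall outside the rule for named genes and were added after their values were seen. Msrb1 was 2.41-fold lower in the labelled knockout than in Mist1- (2.15 to 2.69), and Msrb2 2.67-fold lower than in Mist1+ (1.93 to 3.75). The log2 ratio of Msrb1 in that pair went from -1.23 to -0.79 with the length trend removed.

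Around Prdx4, the oxidase gene Ero1a stood far apart. It makes disulfides in the endoplasmic reticulum and releases hydrogen peroxide. Its FPKM was 35.0 in Mist1-, 20.8 in Mist1+ and 465 in the labelled knockout, 22.3-fold above Mist1+ (21.3 to 23.4), where Prdx4 was at its lowest. Of the other 9 genes of that list none reached 2-fold in FPKM plus 1 between these 2 libraries, though the sparse Gpx7, with 13 and 32 counts, was 2.43-fold higher on counts (1.24 to 5.04). The peroxidase gene Gpx8 was at 79.3, 58.8 and 33.2 FPKM, and the abundant disulfide isomerase gene P4hb at 569, 544 and 546.

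Cat, Sod2, Rrm2 and P4hb, like Msrb1 and Msrb2, fall outside the rule and were added after their values were seen. Among peroxide and superoxide enzymes Sod1 was 2.44-fold lower in Mist1+ than in Mist1- (2.35 to 2.53), and Gpx1 was 2.12-fold lower (1.99 to 2.26), steps of the size seen for Txn1 and Prdx1. With the length trend removed the log2 ratio of Gpx1 went from -1.07 to -0.63, and that of Sod1 from -1.27 to -1.39. Catalase, Cat, was instead highest in Mist1+, at 37.1, 55.4 and 37.2 FPKM. Of 10 NRF2 targets and regulators Nqo1 was 3.28-fold lower in Mist1+ than in Mist1- (2.62 to 4.13). Against Mist1+ the labelled knockout had Slc7a11, of the cystine importer, 3.32-fold higher (3.11 to 3.54) and Hmox1, heme oxygenase, 2.69-fold higher (2.28 to 3.17). Nqo1 was 2.16-fold higher on counts in that pair (1.71 to 2.75), short of 2-fold in FPKM plus 1. The list, which mixes targets with regulators, had a median log2 ratio of -0.10 in Mist1+ against Mist1-. In the labelled knockout against Mist1+ its median was 0.06, with a range of -0.57 to 1.56. There 6 of 10 were above 0, beside 5430 of all 13351 genes. The ribonucleotide reductase gene Rrm2, whose enzyme draws electrons from thioredoxin or glutaredoxin, was at 43.2, 49.2 and 26.4 FPKM. The members and these neighbours thus did not share 1 order over the 3 libraries.

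**Figure D5:**
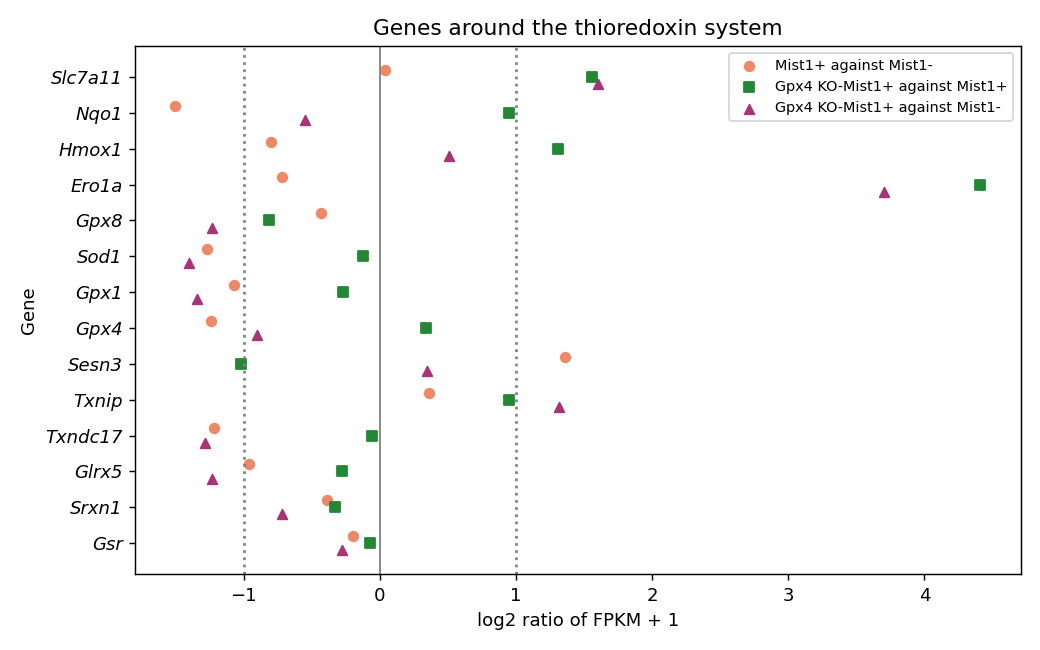
Log2 ratio of FPKM plus 1 of the named genes around the thioredoxin system in the 3 comparisons, with dotted lines at 2-fold. Ero1a lies at 4.41 in the labelled knockout against Mist1+, while Srxn1 and Gsr stay within 2-fold in all 3.

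Some counts are uncertain because genes overlap, and no source used here says whether counting used strand. In GENCODE M21 exons of Prdx5 overlap Trmt112 and those of Prdx2 overlap Junb and Rnaseh2a, all on the opposite strand. Trmt112 had 1149, 694 and 708 counts, so it was lower in Mist1+ like Prdx5 but, unlike Prdx5 with 981 and 1470, nearly level between Mist1+ and the labelled knockout. Junb had 3097, 3374 and 4129 counts, an order opposite to that of Prdx2, and Rnaseh2a had 1198, 780 and 749, the same order as Prdx2. Processed copies of Prdx1, Prdx2 and Txn1 with at least 95% identity over at least 100 bases took few counts, at most 121 in a library.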

How the data were processed

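RNA sequencing of 3 organoid libraries was analysed, 1 per group, with group labels taken from the titles. Per the submitters' processing notes, cutadapt 1.9.1, HISAT2 2.2.1, HTSeq 0.6.1 and GRCm38.p5 were used. Per the file headers the deposited table gives per library a count (whole reads per gene) and an FPKM. The deposited FPKM equalled count per exonic length and column total within 2.85% for genes with at least 50 counts. Positions in the table matched GENCODE M21 (GRCm38) for 2.76% of 52073 shared identifiers, so coordinates here are from M21.

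The column totals were 14943918, 16187378 and 16396693. Genes whose FPKM reached 1 in a library were kept. Log2 ratios used FPKM plus 1, and "at least 2-fold" refers to these; no p-value was computed. Folds of counts used exact binomial 95% intervals, tested on simulated data. The alternatives run were other pseudocounts (0.1 and 5), other filters (none, or an FPKM of at least 5), TPM, median ratio scaling, counts without length (CPM), cutoffs of 1.5-fold and 4-fold, and removal of the trend on exonic length by lowess (fraction 0.3). Near-identical copies were sought with blastn in M21 transcripts. Some marker and overlapping genes are not reported here. For Nnt, on 2 lines, the one of greater length was used.

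The members and lists were chosen with earlier results of these data known. Named genes were all 10 members, Txnip, Srxn1, Gsr and Gpx4, up to 4 genes per list at least 2-fold apart in a comparison, and the 3 genes most like the member with the widest range. Intervals came from scipy 1.17.1 and the lowess trend from statsmodels 0.14.6, run in Python 3.11.15; tables were read with pandas 2.3.3.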

Additional observations from a re-analysis of the deposited data

How the results depend on the processing

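No paired analysis was possible because each group has 1 library. For Mist1+ against Mist1-, the count at least 2-fold lower was 2 when the pseudocount was 0.1, beside 8.46% of all genes. It was 2 on CPM beside 4.78%, 0 on TPM beside 4.01% and 5 with median ratio scaling beside 9.22%. At a cutoff of 1.5-fold it was 6 beside 15.0%, and at 4-fold 0 beside 0.285%. The median log2 ratio was -0.45 on TPM, -1.0 with median ratio scaling and -0.66 with the length trend removed. With the trend removed the 1 gene past 2-fold was Prdx6 in place of Txn1, beside 3.86% of all genes. For the labelled knockout against Mist1+ the median was -0.10 with the trend removed. Against Mist1- the count at least 2-fold lower was 1 on TPM beside 5.95% of all genes, and 1 with the trend removed beside 6.09%. At 4-fold it was 0 beside 0.562%. The median in this pair was -0.50 on TPM and -0.91 with median ratio scaling. Under no alternative run did any of the 10 pass 2-fold upwards. Of 237 log2 ratios of single genes recomputed, 64 moved beyond their counting interval, and none that was past 2-fold turned its sign. The 237 include filter runs, which cannot change a ratio, and pseudocount runs, which cannot turn a sign. An FPKM of at least 5 left out Txnrd2. Depth limits Txnrd2 most, with 158 to 233 counts.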

Other observations

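Prdx2 had the widest range of the 10 genes over the 3 libraries, 1.30 on the log2 scale of FPKM plus 1. The other genes with the most similar pattern, by Euclidean distance of centred log2 values among 8661 candidates, were Mrpl18, a mitochondrial ribosomal protein gene (distance 0.0137; 88.4, 47.9 and 35.7 FPKM in Mist1-, Mist1+ and the labelled knockout), Gstm2-ps1, a pseudogene (0.0138), and Gm26202 (0.0202). Among the 10 genes the nearest to Prdx2 was Prdx4 (0.0908) and the farthest Txnrd1 (1.03). With 3 libraries a pattern has few free values, so a small distance is a description only.

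The length used for FPKM changed levels between genes more than counting error did. On the longest principal transcript Prdx4 in Mist1- went from 86.2 to 183 and Prdx2 from 107 to 202, whereas Prdx3, with 1 transcript model of 1478 bases, stayed at 54.1. Folds between libraries do not depend on this length.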
